A study of Mus musculus with 9 samples.

Results

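The transcripts of 9 enzymes and partners that write, keep or remove DNA methylation and the Polycomb mark on histone H3 lysine 27 (H3K27) were followed in splenic B cells of mice. The 9 genes were taken by symbol and are 9 of the 24346 genes in the RNA-seq data. They are Dnmt1 and Uhrf1 (upkeep of DNA methylation), Dnmt3a and Dnmt3b (new DNA methylation), Tet1, Tet2 and Tet3 (oxidation of methylated cytosine), and Ezh1 and Ezh2 (methylation of H3K27).

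All libraries came from wild-type C57BL6 mice, in 3 groups of 3. FO B (Young) are follicular B cells of 8-wk-old mice, FO B (Aged) are follicular B cells of 50-wk-old mice, and ABCs (Aged) are age-associated B cells of 50-wk-old mice, a population that builds up in the spleen with age. Every group was sorted for high B220 without CD43, among other markers. FO B cells were further gated on CD23 with low CD21, and ABCs on low CD21 without CD23 but with both CD11b and CD11c. No library of ABCs from young mice was analysed here, so the cell type and age can be told apart only through FO B (Aged), and in these bulk libraries fewer cells expressing a gene and less RNA per cell cannot be told apart.

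Values are FPKM, in which the reads of a gene are scaled to transcript length and to library size, so levels of different genes can be set side by side per length. Low values of single-transcript genes put the depth at approximately 8030000 to 9830000 mapped reads per library, and 10032 to 10445 genes reached 1 FPKM. The mean correlation of a library with the others of its group was 0.961 for ABCs (Aged) replicate 3 and 0.969 to 0.976 for the other 8 libraries, so results that rest on this library are given with and without it. Transcripts of the sort markers followed the gates for Fcer2a (CD23), Itgam and Itgax (CD11b and CD11c). Spn, which encodes CD43, was higher in ABCs although both populations were sorted without it, and Cr2, which encodes CD21, averaged 151 FPKM in FO B (Aged) and 4.69 FPKM in ABCs although both were gated on low CD21. Of the 8 B lineage genes, all were at 1 FPKM or more in every library, with Cd22 higher and Ebf1 and Pax5 lower in ABCs (Aged) than in FO B (Aged).

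DNA methylation at CG sites is copied onto new strands after replication by DNMT1, which UHRF1 brings to half-methylated DNA, while DNMT3A and DNMT3B add methyl groups to unmethylated sites. TET enzymes oxidise 5-methylcytosine, which leads to its loss by dilution or by base excision repair, and TET2 and TET3 act in B cell development and activation. EZH2 and EZH1 are the alternative catalytic subunits of Polycomb repressive complex 2 (PRC2), which methylates H3K27. EZH2 is known for its high level in dividing and germinal center B cells, whereas EZH1 is the form of resting cells.

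The 1 large difference among the 9 genes was in Ezh2, which had a 2.245-fold higher mean level in ABCs than in FO B cells of the same age. Tet2 was 1.30-fold higher in ABCs, and Dnmt3b was lower, calls that held in only 5 of 16 and 7 of 15 alternative settings. Over all genes tested in that comparison, 19.4% were higher and 16.5% lower in ABCs. Between FO B cells of young and aged mice no member passed the test, beside 0.346% of genes that were higher and 0.119% that were lower with age. Ezh1 was the highest of the 9 genes in FPKM and Tet1 the lowest in each of the 9 libraries.

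**Figure D1:**
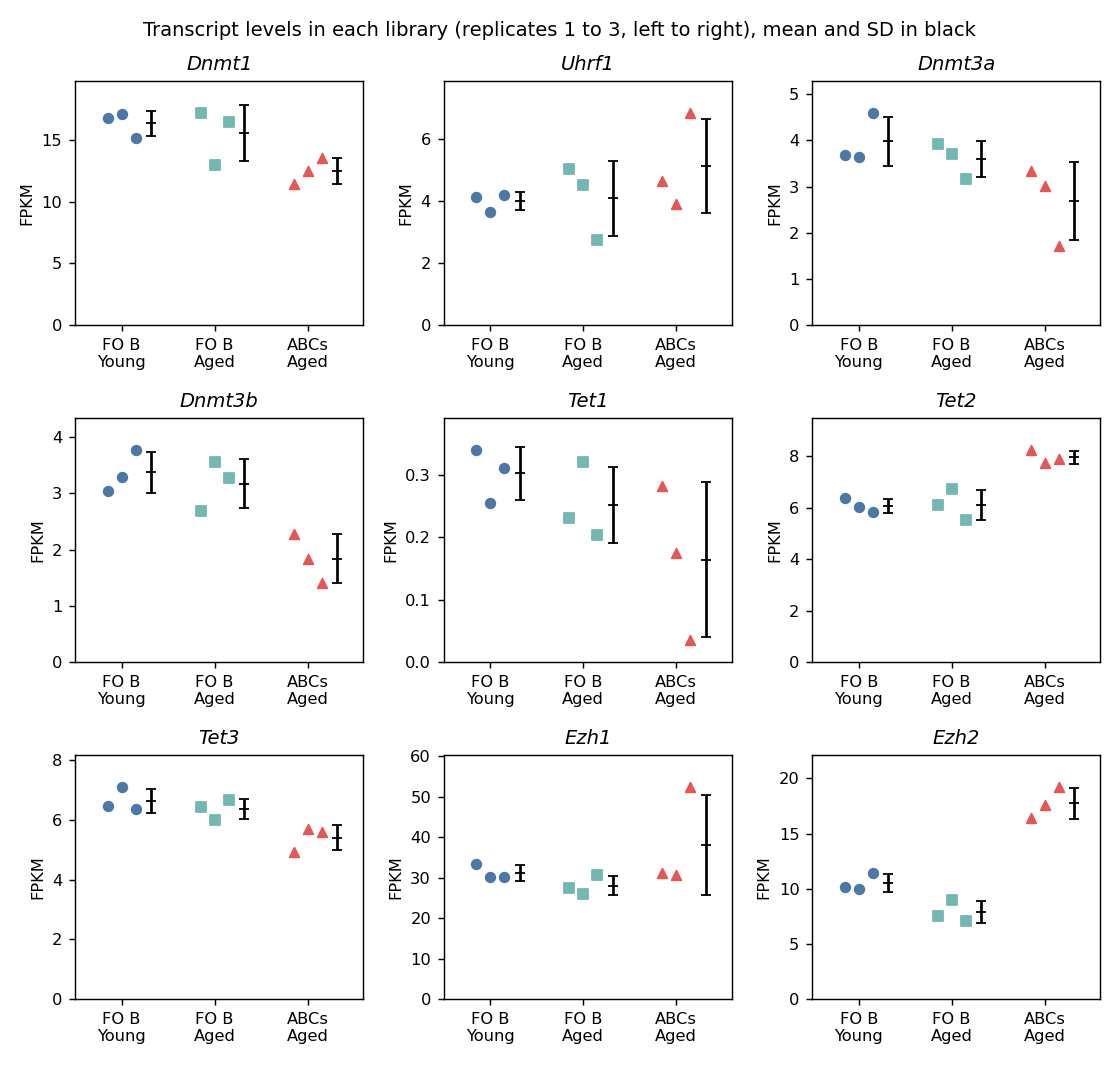
FPKM of the 9 genes (vertical axis of each panel, starting at 0) in the 3 libraries of FO B (Young), FO B (Aged) and ABCs (Aged), with the mean and SD of each group in black. The 3 ABC libraries lay above all FO B libraries for Ezh2 (16.4 to 19.2 FPKM) and Tet2 (7.73 to 8.25 FPKM), and below them for Dnmt3b (1.42 to 2.28 FPKM).

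Ezh2 was at 10.1, 10.0 and 11.5 FPKM in FO B (Young) replicates 1 to 3. In FO B (Aged) it was at 7.56, 9.03 and 7.14 FPKM. The ABC libraries held 16.4, 17.6 and 19.2 FPKM. Every ABC library was thus above every FO B library, and the 3 groups did not overlap at any step, in the order FO B (Aged), FO B (Young), ABCs (Aged). Against FO B (Aged), with means of 17.7 ± 1.40 and 7.91 ± 0.995 FPKM (SD, n = 3 each), Ezh2 rose by 1.08 on the log2(FPKM + 1) scale (SE 0.11, 95% confidence interval 0.81 to 1.34, limma FDR = 0.000543 by the Benjamini-Hochberg method over 10412 genes), and it ranked 467 by p-value. The rise over FO B (Young) was 0.70 (SE 0.097, limma FDR = 0.00142). Under each of 16 alternative settings, with every library left out in turn among them, the limma FDR stayed under 0.05 in both comparisons, from 4.99e-05 to 0.00436 against FO B (Aged) and from 0.000612 to 0.00916 against FO B (Young). With mean FPKM as the measure, an exact permutation test (two-sided) gave p = 0.1, the smallest that 3 against 3 libraries allow. The values rest on approximately 157 to 411 reads per library.

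Ezh1 was at 33.3, 30.1 and 30.05 FPKM in FO B (Young) and at 27.6, 26.1 and 30.55 FPKM in FO B (Aged). In ABCs it was at 31.2, 30.65 and 52.3 FPKM. The ABC libraries were all above those of FO B (Aged), but replicate 3 stood far above the other two. The log2 difference of 0.39 between ABCs and FO B (Aged) did not pass the test (SE 0.20, 95% confidence interval -0.083 to 0.85, limma FDR = 0.171) and was 0.14 without ABC replicate 3. When each library was scaled to its upper quartile, which moved the median log2 difference of all tested genes from -0.011 to 0.153, the Ezh1 difference was 0.56 (limma FDR = 0.0215). The Ezh1 difference from FO B (Young) was 0.24 (limma FDR = 0.365), and -0.008 without ABC replicate 3.

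The balance between both catalytic subunits was computed within each library, where scaling between libraries does not enter. Ezh1 made up 78.5%, 74.3% and 81.1% of the summed FPKM of Ezh1 and Ezh2 in FO B (Aged) and 65.5%, 63.5% and 73.1% in ABCs. The groups did not overlap, with means of 77.9 ± 3.43% and 67.4 ± 5.08% (SD, n = 3 each) and an exact permutation p = 0.1, and the share in FO B (Young) was 74.7 ± 2.15% (SD, n = 3), which overlapped with ABC replicate 3 (exact permutation p = 0.2). Ezh1 thus remained the more abundant transcript of the pair in every library. Relative to the other PRC2 core subunits, Ezh2 was at 2.203 ± 0.225 times the FPKM of Suz12 in ABCs and 0.874 ± 0.040 times in FO B (Aged), and at 0.321 ± 0.0087 and 0.131 ± 0.016 times the FPKM of Eed (SD, n = 3 each, exact permutation p = 0.1 for both ratios).

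The partners of Ezh2 in PRC2 were tested in the same fit. For this and the later gene lists, the shares over all tested genes were 19.4% higher and 16.5% lower at a limma FDR under 0.05. At an unadjusted p under 0.05, 4862 of the 10412 tested genes passed in either direction. Upper quartile scaling moved the counts over all genes from 2020 higher and 1719 lower to 2447 and 603. Of 9 tested partners, 0 were higher and 1 was lower in ABCs than in FO B (Aged) at a limma FDR under 0.05 (0 and 3 at an unadjusted p under 0.05). The one that fell was Mtf2, an accessory subunit that guides PRC2 to CG-rich DNA, which went from 22.4 ± 1.51 FPKM in FO B (Aged) to 14.9 ± 0.624 FPKM in ABCs (SD, n = 3 each), a log2 change of -0.56 (limma FDR = 0.00256). Suz12 and Eed, which the enzyme needs for activity, differed by -0.14 and -0.13 on the log2 scale (limma FDR = 0.502 and 0.256), with libraries that overlapped. The histone-binding subunits Rbbp4 and Rbbp7 differed by -0.18 and 0.099 (limma FDR = 0.183 and 0.357). Among the accessory subunits, Jarid2 differed by -0.38, Phf1 by -0.20, Aebp2 by 0.20 and Phf19 by 0.33, with limma FDR from 0.0708 to 0.251. Without ABC replicate 3, Jarid2 also passed the test (log2 change -0.53, limma FDR = 0.00427). With upper quartile scaling the Mtf2 difference was -0.39 and its limma FDR 0.0567.

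PRC1, the second Polycomb complex, binds methylated H3K27 and ubiquitinates histone H2A. Of 18 tested PRC1 genes, 1 was higher and 5 were lower in ABCs, with a median log2 difference of -0.22. Pcgf6 fell from 18.9 ± 1.59 to 11.1 ± 0.429 FPKM (SD, n = 3 each, log2 change -0.71, limma FDR = 0.00132) and Pcgf5 from 15.7 ± 0.544 to 10.3 ± 1.09 FPKM (log2 change -0.56, limma FDR = 0.00471). Both encode subunits of variant PRC1 complexes, as does Rybp, which fell as well, together with the H3K27-reading subunit Cbx7 and the ubiquitin ligase Rnf2. The 1 gene that rose was Cbx6, which went from 1.85 FPKM in FO B (Aged) to 3.75 FPKM in ABCs (log2 change 0.73, limma FDR = 0.0225). Without ABC replicate 3, 1 PRC1 gene was higher and 7 were lower. With upper quartile scaling, 2 PRC1 genes were higher and 2 lower. Of 6 genes that remove H3K27 methylation or H2A ubiquitin, among them Kdm6a and Kdm6b, 0 passed the test in either direction with limma, and 1 was lower at an unadjusted p under 0.05.

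**Figure D2:**
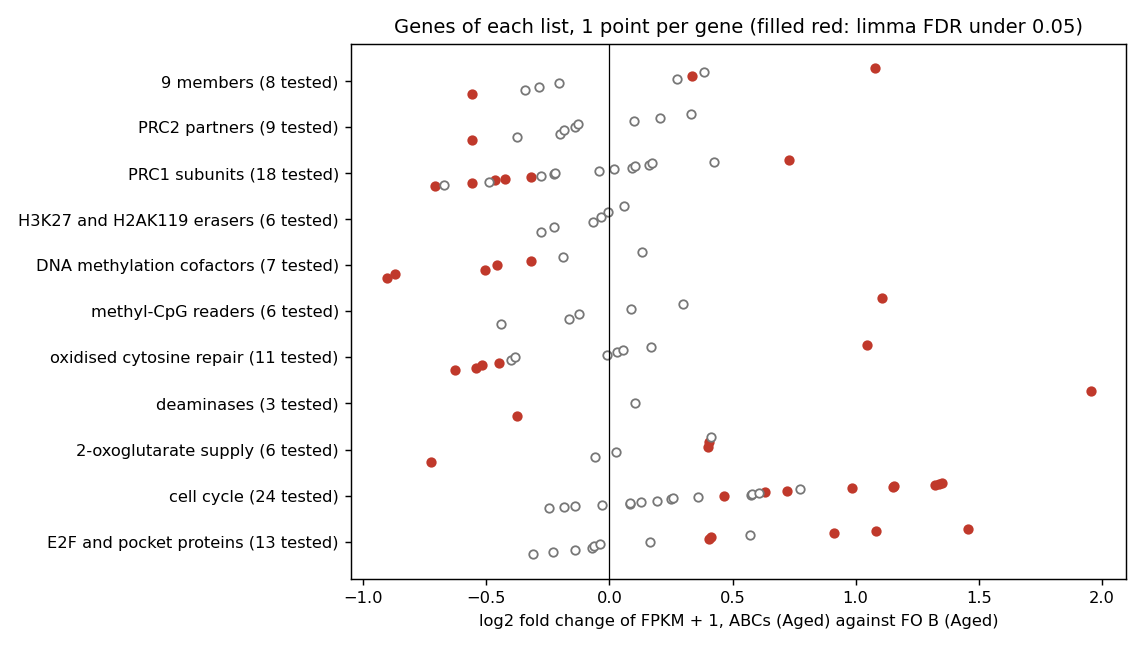
Log2 fold change of FPKM + 1 between ABCs (Aged) and FO B (Aged), 1 point per tested gene, for the 9 members and the gene lists around them, with genes at a limma FDR under 0.05 filled in red. Ezh2 (1.08) lay to the right of all 9 tested PRC2 partners, and the red points of the cell cycle and E2F lists all lay to the right of 0.

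Because Ezh2 is known from dividing cells, cell cycle genes and the E2F family, transcription factors of S phase genes, are given beside it. Of 24 tested cell cycle genes, 9 were higher and 0 lower in ABCs than in FO B (Aged) with limma (13 and 0 at an unadjusted p under 0.05), with a median log2 difference of 0.52. Over all 10412 genes, 4862 had an unadjusted p under 0.05 in either direction. After upper quartile scaling 16 were higher, a setting that also moved the count over all 10412 genes from 2020 to 2447. Ccne1, which drives entry into S phase, was at 19.7 and 7.195 FPKM (log2 change 1.34, limma FDR = 0.000383), Ccnb2, a mitotic cyclin, at 8.03 and 2.52 FPKM (log2 change 1.32, limma FDR = 0.00458), and Birc5, which acts in chromosome segregation, at 10.65 and 3.36 FPKM (log2 change 1.35, limma FDR = 0.00675). The proliferation marker Mki67 was low throughout, with 0.361 to 0.675 FPKM in FO B (Aged) against 1.83 to 3.49 FPKM for ABCs. Of 13 tested E2F and pocket protein genes, 5 were higher and 0 lower at both limma thresholds, led by Tfdp1 (log2 change 1.08, limma FDR = 0.000263), E2f1 (log2 change 1.46, limma FDR = 0.00104) and E2f2 (log2 change 0.91, limma FDR = 0.0032).

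The summed FPKM of the 26 cell cycle genes was 446, 475 and 643 in ABCs, against 413 to 431 for FO B (Aged) and 393 to 437 for FO B (Young). ABC replicate 3 was highest for this sum and also for Ezh2, Ezh1, Uhrf1 and, within ABCs, Dnmt1. Without it, 8 cell cycle genes were higher and 3 lower, the latter being Mcm5, Mcm7 and Stmn1, which were named after their values were seen, and the Ezh2 difference was 1.02 (limma FDR = 0.000797). Uhrf1 and Dnmt1 did not pass the test against FO B (Aged). The part of cell division in the Ezh2 difference was not tested.

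**Figure D3:**
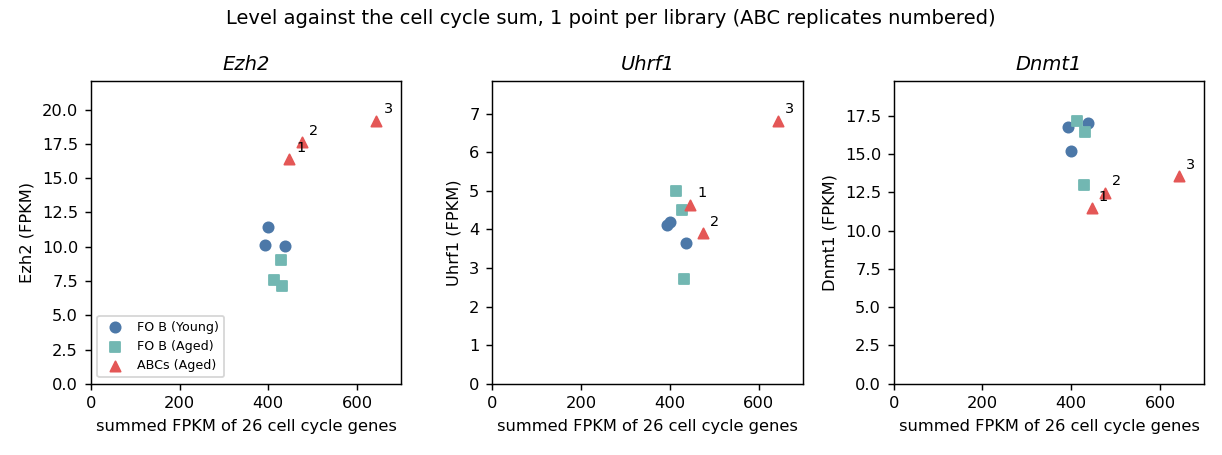
FPKM of Ezh2, Uhrf1 and Dnmt1 (vertical axes) against the summed FPKM of 26 cell cycle genes (horizontal axis), 1 point per library with the ABC replicates numbered. ABC replicates 1 and 2, with sums of 446 and 475, lay above all FO B libraries for Ezh2 but within their range for Uhrf1.

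Germinal center B cells, which hold much EZH2, and plasma cells were followed by their markers. Of 7 tested plasma cell genes, 5 were higher in ABCs, and the summed FPKM of the list was 1000 to 1290 in ABCs, 446 to 474 in FO B (Aged), beside 444 to 454 in FO B (Young). Most of this sum came from Mzb1 alone, whose group means were 944 (ABCs), 316 (FO B, Aged) and 324 (FO B, Young). Irf4 did not rise, its mean being 15.6 for ABCs against 17.3 for FO B (Aged) (limma FDR = 0.49). Tnfrsf17 stayed at or below 0.611 FPKM in every library, too low for the test. Prdm1, which encodes the regulator of plasma cell fate, ranged from 0.18 to 0.713 FPKM in FO B (Aged) and reached 2.93 to 5.70 FPKM in ABCs. The germinal center list summed to 121 to 132 FPKM in ABCs, 50.8 to 63.2 in FO B (Aged), beside 42.2 to 53.6 in FO B (Young), of which Fas alone held 108 FPKM in ABCs on average. Of its 5 tested genes Fas rose, while Bcl6, the defining regulator of germinal center B cells, fell from 31.2 to 6.62 FPKM, and Mef2b fell too.

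Of other cell types, 0 of 9 T cell genes reached the level for a test between ABCs and either FO B group, with sums of 0.277 to 2.98 FPKM over the 9 libraries, and Cd3e was at 0 in every FO B library. In the macrophage and monocyte list 3 of 4 tested genes rose (Adgre1, Cd68 and Vcam1), with sums of 197 to 240 FPKM in ABCs, 9.91 to 15.8 in FO B (Aged), beside 12.1 to 26.7 in FO B (Young). In ABCs Adgre1 held 174 to 222 FPKM, Cd68 6.38 to 13.1 FPKM, Lyz2 2.22 to 7.02 FPKM, Vcam1 2.14 to 3.75 FPKM, Csf1r 0.301 to 0.831 FPKM and Cd14 0.152 to 0.252 FPKM. In the NK cell list 1 of 2 tested genes rose, Prf1, with sums of 29.6 to 38.2 FPKM in ABCs, 0.789 to 1.71 in FO B (Aged), beside 1.37 to 3.69 in FO B (Young), while Ncr1 was at most 0.0882 FPKM. In the neutrophil list 1 of 2 tested genes, S100a9, fell, with sums of 0.322 to 1.60 FPKM in ABCs, 1.08 to 24.4 in FO B (Aged), beside 0.335 to 8.35 in FO B (Young), and Elane was at 0 throughout. The part of any of these cells in the differences of the 9 genes was not tested.

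Promoter sequence is shown for Ezh2 and Ezh1, the alternative catalytic subunits, and for Uhrf1, whose window held another spelling of a motif found in that of Ezh2. RefSeq promoter windows on GRCm38.p6, from 250 bases before to 50 after a transcription start, were found for all 9 members (14 windows). They were searched for 4 spellings of the E2F motif, TTTCCCGC, TTTCGCGC, TTTGCCGC and TTTGGCGC, on both strands. A match was present in 3 of the 14 windows, those of Ezh2, Dnmt1 and Uhrf1, and in 2.26% of all 32851 windows of this length. All 4 spellings contain CG, and these 3 windows held 31 to 33 CG dinucleotides against a median of 7 over all windows. The 2 shares were not matched for CG content. Ezh2 lies on the minus strand of chromosome 6 (chr6:47530139-47595341 in GENCODE M21) and Ezh1 on the minus strand of chromosome 11 (chr11:101191115-101226463). The first 2 lines run from 150 bases before to 12 after the start (chr6:47595019-47595180 and chr11:101226452-101226613, minus strand), the third from 250 to 71 bases before the start of the second Uhrf1 window (chr17:56304063-56304242, plus strand), all 5′ to 3′ in the direction of transcription, with the E2F match in capitals.
Ezh2: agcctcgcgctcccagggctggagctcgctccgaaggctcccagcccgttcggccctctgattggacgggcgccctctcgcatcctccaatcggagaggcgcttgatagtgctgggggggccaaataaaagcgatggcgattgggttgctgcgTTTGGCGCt
Ezh1: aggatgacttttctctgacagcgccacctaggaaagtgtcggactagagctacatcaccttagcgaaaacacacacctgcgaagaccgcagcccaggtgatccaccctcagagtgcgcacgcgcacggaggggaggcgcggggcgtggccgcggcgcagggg
Uhrf1: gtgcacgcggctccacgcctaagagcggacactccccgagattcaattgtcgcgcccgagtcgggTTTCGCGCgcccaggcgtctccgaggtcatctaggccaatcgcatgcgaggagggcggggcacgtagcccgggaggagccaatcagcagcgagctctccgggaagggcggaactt

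In Ezh2 the match starts at base 4 of the transcript, and Ezh1 holds none of the 4 spellings in its window. The Dnmt1 window held 2 matches, TTTCGCGC on the opposite strand 219 bases before the start and TTTGGCGC from base 34 of the transcript. A second cell cycle motif, TTTGAA on either strand, occurred in 1 window each of Dnmt1 and Dnmt3b and in 17.9% of all windows. The number of CG dinucleotides, the target of the DNA methyltransferases, was 31 in the Ezh2 window, 23 in that of Ezh1 and 57 in that of Tet2, against a median of 7 over all windows. These matches describe letters only, and methylation or binding at the promoters was not measured.

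Turning to the oxidation of methylated cytosine, Tet2 was at 6.37, 6.03 and 5.83 FPKM in FO B (Young) and at 6.10, 6.72 and 5.52 FPKM in FO B (Aged). In ABCs it was at 8.25, 7.73 and 7.90 FPKM. All 3 ABC libraries lay above all 6 FO B libraries, and the FO B groups overlapped. Against FO B (Aged), Tet2 rose by 0.34 on the log2 scale (SE 0.11, 95% confidence interval 0.085 to 0.59, limma FDR = 0.0451), with means of 7.96 ± 0.262 and 6.11 ± 0.599 FPKM (SD, n = 3 each). This call was held in 5 of 16 alternative settings and was lost without any 1 of the 6 libraries, with limma FDR from 0.0505 without FO B (Aged) replicate 2 to 0.137 without FO B (Aged) replicate 3. Against FO B (Young) the rise was likewise 0.34 (SE 0.094, limma FDR = 0.0254), and it was lost without any FO B (Young) library or ABC replicate 1 (limma FDR from 0.0546 to 0.0783).

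Tet3 was at 6.46, 7.085 and 6.35 FPKM in FO B (Young), at 6.44, 6.001 and 6.64 FPKM in FO B (Aged), and at 4.91, 5.67 and 5.59 FPKM in ABCs. The ABC libraries were the lowest, but the log2 difference of -0.20 from FO B (Aged) did not pass the test (SE 0.11, 95% confidence interval -0.46 to 0.049, limma FDR = 0.178), nor did that of -0.26 from FO B (Young) (limma FDR = 0.0955). Within a library, Tet2 made up 58.9 ± 2.24% of the summed FPKM of the 3 Tet genes in ABCs, 48.0 ± 3.45% in FO B (Aged) and 46.7 ± 1.65% in FO B (Young) (SD, n = 3 each). The shares in ABCs and FO B (Aged) did not overlap (exact permutation p = 0.1), and leaving out any 1 library kept the difference between 9.25 and 12.7 percentage points. The summed FPKM of the Tet genes was 13.5 ± 0.0702 in ABCs and 12.7 ± 0.337 in FO B (Aged), also without overlap (exact permutation p = 0.1). In size, the balance of Tet2 and Tet3 differed more than their total. Tet3 and Tet2 had near equal levels in FO B cells, with Tet3 the higher in 3 of 3 young and 2 of 3 aged libraries, whereas Tet2 was the higher in 3 of 3 ABC libraries.

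Tet1 was at 0.0350 to 0.340 FPKM over the 9 libraries, and its mean was under the 1 FPKM needed for the test in every comparison. ABC replicate 3 was the lowest at approximately 4 reads, and the other libraries held 22 to 45 reads. With no filter on low values, the log2 difference between ABCs and FO B (Aged) was -0.11 (SE 0.091, limma FDR = 0.478), a change that was not detectable at this depth.

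**Figure D4:**
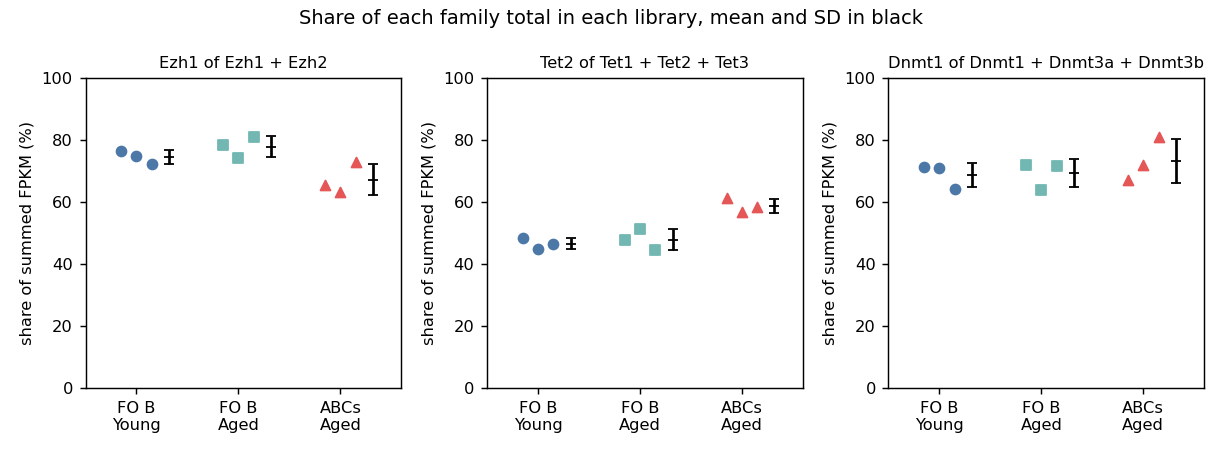
Share of the family total in each library (vertical axis, percent of summed FPKM from 0 to 100), for Ezh1 of both Ezh genes, Tet2 of the 3 Tet genes and Dnmt1 of the 3 Dnmt genes, with the mean and SD of each group in black. The ABC libraries lay below FO B (Aged) for Ezh1 (67.4% against 77.9% on average) and above it for Tet2 (58.9% against 48.0%), and overlapped with it for Dnmt1.

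Genes that act after the TET enzymes, or supply them, moved both ways. In the list of 11 genes for repair of oxidised cytosine, 1 was higher and 4 were lower in ABCs. Parp1, a sensor of DNA breaks, fell from 104 to 67.1 FPKM (log2 change -0.63, limma FDR = 0.00045), Gadd45a fell from 17.1 to 11.7 FPKM (log2 change -0.52, limma FDR = 0.00419), and the repair genes Apex1 and Mbd4 fell as well. Gadd45b, a stress-induced gene linked to demethylation, rose from 34.3 to 73.1 FPKM (log2 change 1.05, limma FDR = 0.00258). Tdg, the glycosylase that removes oxidised cytosine, was at 3.46 and 2.93 FPKM (limma FDR = 0.624). With upper quartile scaling, 1 gene was higher and 1 lower. Of 3 tested cytidine deaminases, Apobec2 rose from 1.42 to 8.43 FPKM (log2 change 1.96, limma FDR = 0.002) and Apobec3 fell from 395 to 304 FPKM (log2 change -0.38, limma FDR = 0.00389, and 0.32 with upper quartile scaling). Of 6 genes around 2-oxoglutarate, the cofactor of the TET enzymes, Ogdh and Idh2 were among those that passed the test, and both rose (log2 changes 0.41 and 0.40, limma FDR = 0.00481 and 0.0197).

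Among the methyltransferases, Dnmt3b was at 3.05, 3.30 and 3.77 FPKM in FO B (Young) and at 2.695, 3.55 and 3.27 FPKM in FO B (Aged). In ABCs it was at 2.28, 1.84 and 1.42 FPKM. All ABC libraries were below all FO B libraries, and the FO B groups overlapped. Dnmt3b fell by 0.56 on the log2 scale against FO B (Aged) (SE 0.17, 95% confidence interval -0.95 to -0.16, limma FDR = 0.0376), to 0.581 times the mean FPKM of 3.17 ± 0.438 (SD, n = 3), on approximately 48 to 144 reads per library. This call was held in 7 of 15 alternative settings. Leaving out FO B (Aged) replicate 1 (limma FDR = 0.0562), 2 (0.114) or 3 (0.107), or ABC replicate 2 (0.0769) or 3 (0.0729), lost it. Dnmt3b also fell against FO B (Young), by 0.63 (SE 0.16, limma FDR = 0.0187), a call lost without FO B (Young) replicate 2 (limma FDR = 0.0567) or 3 (0.0695).

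Dnmt3a was at 3.69, 3.65 and 4.60 FPKM in FO B (Young), at 3.92, 3.70 and 3.175 FPKM in FO B (Aged), and at 3.33, 3.02 and 1.72 FPKM in ABCs. ABC replicate 3 was the lowest and replicate 1 alone lay within the range of FO B (Aged). The log2 difference of -0.34 from FO B (Aged) did not pass the test (SE 0.20, limma FDR = 0.218) and was -0.14 without ABC replicate 3. All ABC libraries were below those of FO B (Young), without passing the test (log2 difference -0.46, limma FDR = 0.111). Dnmt3l, which encodes a cofactor of both enzymes in germ cells, was at 0 in every library.

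Dnmt1 was at 16.8, 17.05 and 15.2 FPKM in FO B (Young), at 17.2, 12.98 and 16.45 FPKM in FO B (Aged), and at 11.45, 12.5 and 13.6 FPKM in ABCs. FO B (Aged) replicate 2 was low and overlapped with the ABC libraries. The log2 difference between ABCs and FO B (Aged) was -0.29 (SE 0.12, 95% confidence interval -0.58 to 0.007, limma FDR = 0.114). It was -0.40 when FO B (Aged) replicate 2 was left out (limma FDR = 0.04). Against FO B (Young), whose libraries all lay above the ABC libraries, Dnmt1 fell by 0.36 (SE 0.095, limma FDR = 0.0207), which was lost without FO B (Young) replicate 1 (limma FDR = 0.0739), FO B (Young) replicate 2 (0.0757) or ABC replicate 1 (0.0644). In FO B libraries Dnmt1 was above Ezh2 in 6 of 6, and in ABCs Ezh2 was above Dnmt1 in 3 of 3.

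Uhrf1, the partner that leads DNMT1 to its sites, was at 4.125, 3.65 and 4.19 FPKM in FO B (Young), at 5.005, 4.49 and 2.725 FPKM in FO B (Aged), and at 4.65, 3.91 and 6.825 FPKM in ABCs. The groups overlapped and ABC replicate 3 was the highest. The log2 difference of 0.27 between ABCs and FO B (Aged) did not pass the test (SE 0.24, 95% confidence interval -0.29 to 0.84, limma FDR = 0.403) and was 0.082 without ABC replicate 3.

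The summed FPKM of Dnmt1, Dnmt3a and Dnmt3b was 17.05, 17.3 and 16.7 in ABCs and 23.8, 20.2 and 22.9 in FO B (Aged). The sums did not overlap, with means of 17.0 ± 0.311 and 22.3 ± 1.85 (SD, n = 3 each, exact permutation p = 0.1). Dnmt1 held 73.4 ± 7.16% of this sum in ABCs and 69.4 ± 4.55% in FO B (Aged) (SD, n = 3 each, exact permutation p = 0.5), a difference of 4.03 percentage points that was 0.14 without ABC replicate 3.

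Of 7 tested cofactors of DNA methylation, 0 were higher and 5 were lower with limma (0 and 6 at an unadjusted p under 0.05), with a median log2 difference of -0.46. The shares over all tested genes were 19.4% higher and 16.5% lower at the same FDR, and 4862 of 10412 genes had an unadjusted p under 0.05. Usp7, a deubiquitinase that binds DNMT1 and UHRF1, fell from 17.5 ± 2.53 to 9.04 ± 0.714 FPKM (SD, n = 3 each, log2 change -0.87, limma FDR = 0.00195), Cdca7, which recruits the remodeller HELLS, fell from 17.2 ± 2.25 to 8.76 ± 1.65 FPKM (log2 change -0.91, limma FDR = 0.00406), and Mat2a, which makes the methyl donor, fell from 225 to 157 FPKM (log2 change -0.50, limma FDR = 0.0117). Uhrf2 and Ahcy fell as well (limma FDR = 0.0384 and 0.0487). Under upper quartile scaling, 2 of the 7 were lower, and the count over all 10412 genes went from 1719 to 603. Of 6 tested readers of methylated CG sites, Zbtb38 rose from 5.44 ± 0.243 to 12.9 ± 1.24 FPKM (SD, n = 3 each, log2 change 1.11, limma FDR = 0.000368), and 0 fell (1 at an unadjusted p under 0.05).

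In all, 2 of 8 tested members were higher in ABCs than in FO B (Aged) and 1 was lower, where 19.4% of all 10412 tested genes were higher and 16.5% lower (limma, FDR under 0.05). With upper quartile scaling the same counts over all genes were 2447 higher and 603 lower, in place of 2020 and 1719, and those over the members 3 higher (Ezh1 added) and 0 lower. The libraries of both groups did not overlap for 5 of the 8 members and for 52.6% of all genes, and the median absolute log2 difference was 0.34 for the members and 0.27 for all genes. Against FO B (Young), 2 of 8 members were higher and 2 lower, beside 21.6% and 19.1% of 10438 genes, and the libraries did not overlap for 6 members and for 55.3% of all genes. With upper quartile scaling that comparison counted 1835 genes higher and 927 lower, in place of 2252 and 1996. The shares among the members were thus near those of all genes in both comparisons, which share the ABC libraries.

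**Figure D5:**
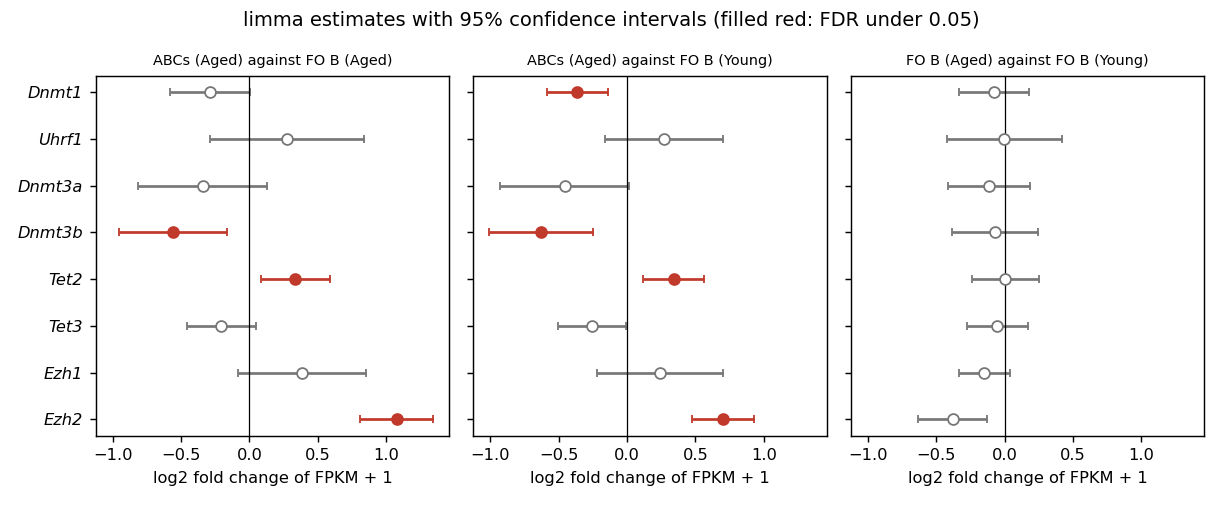
Log2 fold change of FPKM + 1 (horizontal axis) with its 95% confidence interval from limma for the 8 tested members in the 3 comparisons, filled red where the FDR was under 0.05. Ezh2 stood at 1.08 and 0.70 in the comparisons of ABCs with FO B (Aged) and FO B (Young), and no interval was filled between the FO B groups.

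To ask what differed with age within one cell type, FO B (Aged) were compared with FO B (Young). With limma, 0 of 8 tested members had an FDR under 0.05 in either direction, beside 0.346% of 10122 genes that were higher and 0.119% that were lower (35 and 12 genes, or 24 and 27 with upper quartile scaling). An unadjusted p under 0.05 was found for 1298 of the 10122 genes and for 1 of the 8 members. That member was Ezh2, at 7.91 ± 0.995 FPKM in FO B (Aged) and 10.5 ± 0.794 FPKM in FO B (Young) (SD, n = 3 each). All 3 aged libraries were below all 3 young libraries, a log2 difference of -0.38 (SE 0.11, 95% confidence interval -0.63 to -0.12, limma FDR = 0.201, unadjusted p = 0.00853, exact permutation p = 0.1). It was the 1 member of 8 without overlap, beside 18.6% of all genes.

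The other 7 tested members differed by less between the FO B groups. Ezh1 differed by -0.15, Dnmt3a by -0.11, Dnmt1 by -0.076, Dnmt3b by -0.069, Tet3 by -0.052, Tet2 by 0.004 and Uhrf1 by -0.003 on the log2 scale, with limma FDR from 0.495 for Ezh1 to 0.997 for Uhrf1. The summed FPKM of Ezh1 and Ezh2 was 36.0 ± 1.49 in FO B (Aged) and 41.7 ± 1.65 in FO B (Young) (SD, n = 3 each, exact permutation p = 0.1), without overlap. Of the genes around the members, 0 passed the limma test with age, with a smallest FDR of 0.125. The lists were PRC2 (9 genes tested), PRC1 (18), eraser (6), reader (7), cofactor (7), repair (11), deaminase (3), 2-oxoglutarate (6), cell cycle (21) and E2F (13). At an unadjusted limma p under 0.05, 9 genes of these lists were higher and 2 lower with age. The same threshold was passed by 1298 of all 10122 tested genes in either direction.

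For the members that differed between ABCs and FO B (Aged), the genes with the most similar profile over the 9 libraries were sought by the root mean square difference of centred log2(FPKM + 1). The search covered 4186 genes with an SD of at least 0.25 on this scale. Tet2 itself had an SD of 0.183, so genes that varied as little as Tet2 were not searched. The nearest to Ezh2 were Bphl (0.106), Adgre5 (0.114) and Slc48a1 (0.116), to Tet2 were Agtrap (0.09), Zfp386 (0.096) and Nudt18 (0.097), and to Dnmt3b were Lpp (0.078), Hsdl1 (0.078) and 2310061I04Rik (0.083).

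All 9 members are protein-coding in the GENCODE M21 annotation (GRCm38, which is mm10). Dnmt1 spans chr9:20907209-20959888 (minus strand), Uhrf1 chr17:56303321-56323486 (plus), Dnmt3a chr12:3806007-3914443 (plus), Dnmt3b chr2:153649450-153687730 (plus), Tet1 chr10:62804570-62908996 (minus), Tet2 chr3:133463679-133545139 (minus) and Tet3 chr6:83362373-83459084 (minus). Dnmt3a, Dnmt3b, Tet2, Tet3 and Ezh2 overlap a gene on the opposite strand in this annotation. The sources used here do not say whether the counting used strand, so reads of these 5 genes and of their opposite-strand partners cannot be told apart. Of the partners with values, Dnmt3aos (at Dnmt3a) reached at most 0.483 FPKM and B230319C09Rik (at Tet3) 0.154 FPKM.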

How the data were processed

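RNA-seq was analysed for 9 libraries of sorted splenic B cells, 3 per group, with groups and replicate numbers taken from the sample labels. Per the study's methods, the authors prepared cDNA (SMART-Seq HT) and Nextera libraries and read 101-base single ends. The submitters' processing notes name TopHat2 2.1.1, Bowtie2 2.2.8, SAMtools 0.1.18, Cuffdiff 2.2.1 and mm10, whereas the study's methods name other versions of the first 3 and Cufflinks in place of Cuffdiff, so how library size entered the FPKM is uncertain. The authors deposited FPKM values for 24346 gene symbols. Annotation, strand setting and any scaling between libraries are not given in the sources used here, and read counts were not used here.

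From these, log2(FPKM + 1) was modelled by limma 3.58.1 under R 4.3.3 (functions lmFit and trended eBayes) for the 6 libraries compared. Genes had to average 1 FPKM or more in them, with Benjamini-Hochberg adjustment and calls at an FDR under 0.05. Fold changes on this scale understate those of low genes. For shares and sums an exact permutation test, two-sided, was used (smallest p 0.1). Depth was approximated from low values of genes with 1 transcript of at least 1000 bases, 68.0 to 73.7% of which lay within 0.05 of whole reads, and intervals from it cover counting error only. The study gives 3 mice per group, while the labels tie no library to a mouse. Python 3.11.15, pandas 2.3.3, scipy 1.17.1 and matplotlib 3.10.9 were used.

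The members, gene lists and tests were chosen with earlier results of these data known. Named were all members, all PRC2 partners, up to 3 genes per list by FDR, and singly counted genes (5 or fewer, or of a known role) named after their values were seen. A few items are not reported here.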

Additional observations from a re-analysis of the deposited data

How the results depend on the processing

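Results were recomputed with a pseudocount of 0.1 or 0.01, without the low-value filter or with one at 5 FPKM, after quantile, TPM or upper quartile scaling, with untrended eBayes, over 9 libraries together, with the replicate block, at an FDR under 0.01 and leaving out each library. Of the values recomputed, 345 kept their direction and side of the threshold, 40 lost and 2 gained a call, and 12 changed sign, none of these 12 called. In the comparison of ABCs with FO B (Aged), the 2 members higher became 1 with no filter, a filter at 5 FPKM, quantile or TPM scaling, the replicate block, an FDR under 0.01 and without any 1 library (1 to 1), and 3 with upper quartile scaling, which added Ezh1. The 1 member lower became 0 with no filter, a filter at 5 FPKM (which left Dnmt3b out), upper quartile scaling, the replicate block and an FDR under 0.01, and 0 to 1 without 1 library. Against FO B (Young), the 2 higher became 1 with no filter, upper quartile scaling, the replicate block and an FDR under 0.01 (1 to 2 without 1 library), and the 2 lower became 1 with a filter at 5 FPKM and 0 with upper quartile scaling, the replicate block and an FDR under 0.01 (0 to 2 without 1 library). The cause was not tested. Between the FO B groups, log2 differences changed sign for Uhrf1 (0.004 with quantile scaling, -0.139 to 0.205 without 1 library), Tet2 (-0.004 with TPM, -0.107 with upper quartile scaling, -0.056 to 0.065 without 1 library), Dnmt1 (-0.148 to 0.041 without 1 library) and Dnmt3b (-0.135 to 0.016), and for Ezh1 between ABCs and FO B (Young) (-0.008 to 0.368). Same-numbered libraries of ABCs and FO B (Aged) had deviations correlated at 0.085, -0.019 and 0.108, and those of different number at -0.108 to 0.059. Not every library correlated best with its own number. Correlations this small cannot decide whether same-numbered libraries came from the same mouse. With the replicate block the limma FDR was 0.0751 for Dnmt3b and 0.079 for Tet2. Counts of called list genes without ABC replicate 3 were added after seeing the data. Depth limits Tet1 most, at 4 to 45 reads.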
